A study of Mus musculus with 6 samples.

Results

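The respiratory chain passes electrons from NADH and succinate to oxygen and uses the energy released to make ATP, and its subunits are encoded in 2 genomes. The genes described here are 56 subunit genes, chosen by symbol: 43 in the nucleus and 13 on the mitochondrial chromosome, out of 53819 genes in the count table. They comprise complex I, which takes electrons from NADH, complex III and its carrier cytochrome c, complex IV, which reduces oxygen, and complex V, the ATP synthase. All 56 had a line in the table, 1 of them (listed as Atp5f1) under its newer symbol Atp5pb. Counts were high enough for a test in 51, namely all 43 nuclear genes and 8 of the 13 mitochondrial genes.

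The samples are 6 RNA-seq libraries of mouse leukaemia, 3 with the genotype label SLC6A6 KO and 3 with the label SLC6A6 WT, called KO1 to KO3 and WT1 to WT3, and values by library are given in that order. Mice of both groups had been transplanted with primary leukaemia cells driven by the fusions BCR-ABL and NUP98-HOXA9, a model of blast crisis chronic myeloid leukaemia (bcCML), and RNA came from leukaemia cells sorted out of the spleen. The sources used here do not give the sort marker, the age and strain of the mice or the altered part of the gene, and the title speaks of a knock-down where the labels say KO. Whether libraries of a group are from separate mice is not in the labels, so a p-value here reflects the spread among these samples only, and that spread may be technical.

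Slc6a6 encodes the taurine transporter. Mitochondria use taurine to modify the wobble base of a few of their transfer RNAs, a step carried out by the enzymes Gtpbp3 and Mto1, and the modified tRNAs are needed to translate the subunits encoded in mitochondrial DNA. Mitochondrial genes are transcribed as long precursors from both strands of a circular chromosome, whereas nuclear subunits have a promoter each, many with sites for the factors NRF1, GABP (an ETS factor) and YY1. Acute and chronic myeloid leukaemia cells are known to rely on oxidative phosphorylation.

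Library totals lay between 42829294 and 49537098 counts. Slc6a6 itself was at 125, 132 and 132 CPM (counts scaled to library size) in KO and at 151, 145 and 145 CPM in WT. The KO libraries lay below the WT libraries by 11.7% (log2 fold change −0.18 ± 0.07, standard error; edgeR quasi-likelihood test, adjusted p = 0.196), and where the counted reads fall relative to the altered part of the gene was not tested. Summed counts of 4 Y-linked genes were 10274 to 11236 in each KO library and 0, 0 and 1 in the WT libraries, so genotype and the sex of the cells cannot be told apart. A mixed list of 9 leukaemia, progenitor and myeloid genes (Kit, Cd34, Ptprc, Hoxa9, Meis1, Mpo, Myb, Itgam and Gata2) summed to 1124 to 1508 CPM in KO and 1027 to 1377 CPM in WT. Within that list 5 genes had positive and 4 negative log2 fold changes, from −2.38 to 1.86. Of the 9, 1 passed the edgeR test, Kit, which was higher in KO (adjusted p = 0.0450), beside 1.64% of all genes higher in KO. The 12 erythroid marker genes summed to 24475, 8092 and 27755 CPM in KO and to 2759, 11227 and 6316 CPM in WT. Macrophage markers (9 genes) spanned 67.2 to 167 CPM in KO and 28.8 to 48.3 CPM in WT, dendritic cell markers (8 genes) 110 to 131 and 49.0 to 58.3 CPM. B cell markers (8 genes) spanned 57.0 to 155 and 5.44 to 39.7 CPM, T and NK cell markers (10 genes) 9.57 to 27.6 and 1.52 to 7.33 CPM. Neutrophil markers (9 genes) spanned 15.7 to 219 CPM in KO and 110 to 773 CPM in WT. Megakaryocyte markers (7 genes) spanned 623 to 957 and 941 to 1629 CPM, and mast cell and basophil markers (6 genes) 45.4 to 73.0 and 55.7 to 126 CPM. For macrophage, dendritic cell, B cell, and T and NK cell markers, all KO sums lay above all WT sums. The edgeR test was passed by 2 of 9 macrophage and 2 of 7 dendritic cell markers tested. It was also passed by 3 of 7 B cell and 5 of 9 T and NK cell markers. All of these were higher in KO, beside 1.64% of all genes. The groups overlapped for the sums of erythroid, neutrophil, megakaryocyte, and mast cell and basophil markers. By gene, all 12 erythroid markers had positive log2 fold changes (median 1.55), and 0 passed. Neutrophil markers gave 3 positive and 6 negative values, megakaryocyte markers 3 and 4, and mast cell and basophil markers 3 and 3. Of these, 1 megakaryocyte marker passed as higher and 1 as lower, and Hdc of the mast cell list as lower. Among all genes 1.92% were lower. No marker of these lists was at 0 in all 6 libraries. In bulk RNA, fewer cells of a type and less RNA per cell cannot be told apart.

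Mitochondrial genes have copies in nuclear DNA, and several of the 13 mitochondrial members are repeated there almost letter for letter. On mouse chromosome 1, GENCODE M21 (build GRCm38) annotates 7 adjacent pseudogenes on the minus strand, chr1:24611535-24616197, that repeat the mitochondrial genes from part of mt-Co1 to part of mt-Nd4. The sources used here do not name the authors' build and annotation, and the coordinates below come from GENCODE M21. The first 60 bases of mt-Co2 (chrM:7013-7696, plus strand, single exon) and of its copy Gm28661 (chr1:24614885-24615565) are shown because they are identical:
mt-Co2: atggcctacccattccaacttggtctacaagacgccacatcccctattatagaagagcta
Gm28661: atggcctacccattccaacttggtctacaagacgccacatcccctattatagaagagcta
The copy of mt-Nd3 (chrM:9459-9806, plus strand) is Gm28438 (chr1:24612775-24613119), and the only difference in its 345 bases is T3C, counted from 1 at the 5′ end of the gene and given in capitals:
mt-Nd3: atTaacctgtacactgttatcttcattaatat
Gm28438: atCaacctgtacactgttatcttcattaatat
The copy of mt-Co1 (chrM:5328-6872, plus strand) is partial. Gm29216 (chr1:24615706-24616197) starts at position 1054 of the gene, and its 6 differences from mt-Co1 (T1056A, C1057T, A1059G, A1060G, C1062A and A1066T, in capitals) all lie in the first bases that it shares with the gene:
mt-Co1: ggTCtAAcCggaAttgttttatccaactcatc
Gm29216: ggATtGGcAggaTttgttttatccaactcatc
Copies of mt-Nd4l (Gm10222, 294 bases), mt-Co2 (681 bases), mt-Co3 (Gm28437, 783 bases) and mt-Atp6 (Gm10925, 678 bases) had 0 mismatches, as had the 876 bases of mt-Nd4 repeated in Gm28439.

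Of the 13 mitochondrial members, 4 with nearly complete copies were at or near 0 counts, and so was 1 with no annotated copy. A read here is 100 bases long, and windows of that length were compared between each member's transcript and all other annotated transcripts. Of the windows of mt-Co3, 684 of 685 (99.9%) also occurred in another gene, and the shares were 99.5% for mt-Co2 and mt-Atp6 and 98.5% for mt-Nd4l. For mt-Co2, mt-Co3 and mt-Nd4l, 0 counts were deposited in all 6 libraries, and mt-Atp6 had 1 count, in WT2. A count of 0 allows up to 3 counts, which is 0.0594 to 0.0727 CPM depending on the library, a limit for counting error only. In mt-Nd3, where 97.6% of windows were shared, the libraries held 176 to 255 counts. Its level was 13.7 CPM per kilobase of transcript, against 165 to 1019 CPM per kilobase for the other 7 mitochondrial members tested.

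Subunits with long unshared stretches were abundant. None of the windows of mt-Nd1, mt-Nd5, mt-Nd6 and mt-Cytb was shared, 3.19% of those of mt-Nd2, 30.8% of those of mt-Co1 and 60.8% of those of mt-Nd4. In this group mt-Cytb was highest per kilobase (1019 CPM) and mt-Nd5 lowest (165 CPM). The copies on chromosome 1 were themselves at 1 to 8 counts over all 6 libraries together. For mt-Nd4l, mt-Co2, mt-Co3 and mt-Atp6, neither the gene nor its chromosome 1 copy thus held more than a few counts. On chromosome 2, Gm13341 shared 88 windows with mt-Co2 and held 35 counts over the 6 libraries. Gm13340, also there, shared 80 windows with mt-Co1 and held 86 counts. How reads with several matches were counted before deposit is not stated, and its part in these values was not tested. mt-Atp8 (chrM:7766-7969) was also at 0 counts in all 6 libraries, although 0 of its 105 windows occurred in another annotated transcript. Between the copies of mt-Atp6 and mt-Co2 lies an unannotated gap of 233 bases (chr1:24614652-24614884), as long as the mitochondrial interval chrM:7694-7926 between these genes' matching ends, in which mt-Atp8 begins. The genome sequence of that gap was not used here. These 5 genes include both mitochondrial subunits of complex V, and whether their transcripts were present in the cells was not tested.

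**Figure D1:**
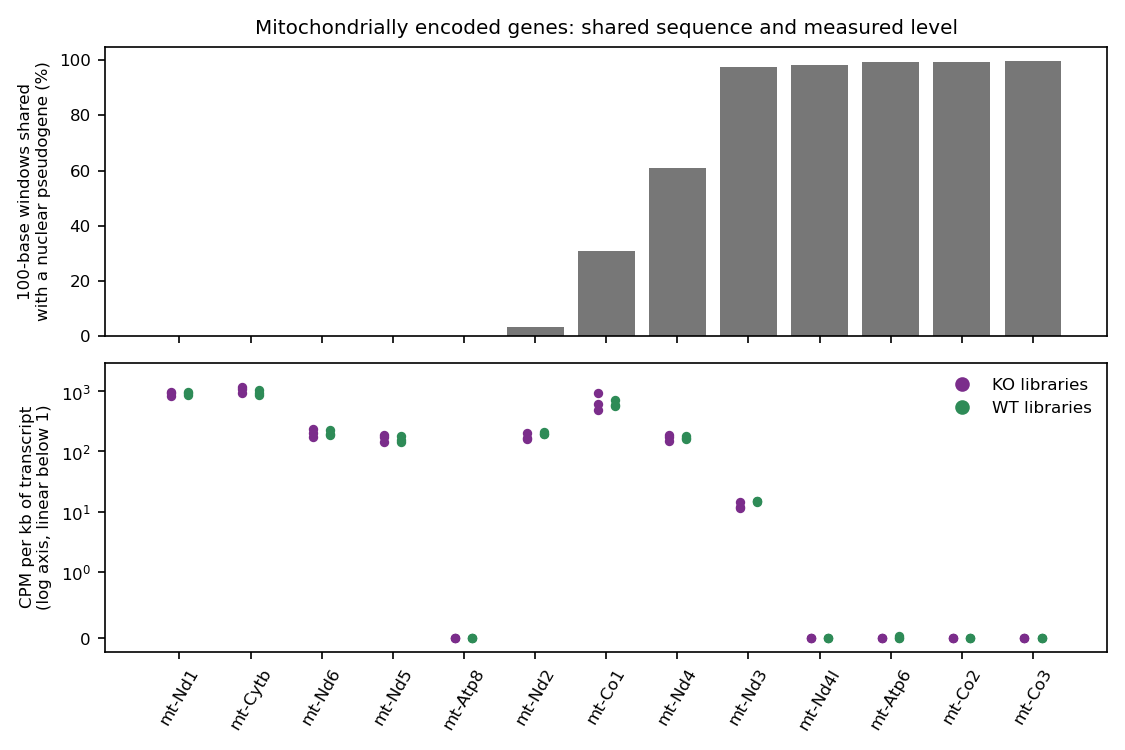
The upper panel gives, for each of the 13 mitochondrially encoded genes, the percentage of 100-base windows of its transcript that also occur in another annotated gene, and the lower panel its level in CPM per kilobase (log axis, linear below 1), with 1 point per library (KO purple, WT green). mt-Nd4l, mt-Co2, mt-Co3 and mt-Atp6, shared over more than 98% of their windows, sit at or near 0, as does mt-Atp8, which shares none, and mt-Nd3 lies far below the others.

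None of the 51 testable subunit genes passed the test between KO and WT, in either direction. Over all 15232 genes tested, 3.56% passed (adjusted p below 0.05, edgeR quasi-likelihood test with Benjamini-Hochberg adjustment), 1.64% higher and 1.92% lower in KO. DESeq2 and limma-voom also called 0 members, beside 13.1% and 2.96% of all genes. At an unadjusted p below 0.05 there were 2 members, Cycs and Ndufb3, both with negative fold changes, beside 22.0% of all genes tested in either direction. The median log2 fold change was −0.02 over the 51 members and 0.01 over all genes. The median size of the change, leaving out its sign, was 0.06 for the members and 0.26 for all genes. Median standard errors were 0.09 and 0.22, so these sizes were fitted with unlike precision. No set of genes matched to the members for level was used here. No member was fitted with a log2 change over 0.31 in size, a size that 44.8% of all tested genes passed.

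For all 43 nuclear members the 95% interval of the fold change lay within 1.5-fold in both directions, and for 32 of them within 1.25-fold. Over all genes tested, intervals within 1.5-fold made up 35.5% and within 1.25-fold 9.68%. The median standard error was 0.22 over those genes and 0.09 over the nuclear members, and widths were not compared at matched levels. Of the 8 mitochondrial members tested, 6 had intervals within 1.5-fold and 2 within 1.25-fold. Groups did not overlap in 5 members: the KO libraries lay above the WT libraries in Ndufa1 and below them in Ndufb3, Cycs, Cox7c and Atp5a1. Over all genes tested, 28.0% had groups that did not overlap, 13.6% with KO above and 14.4% with KO below.

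**Figure D2:**
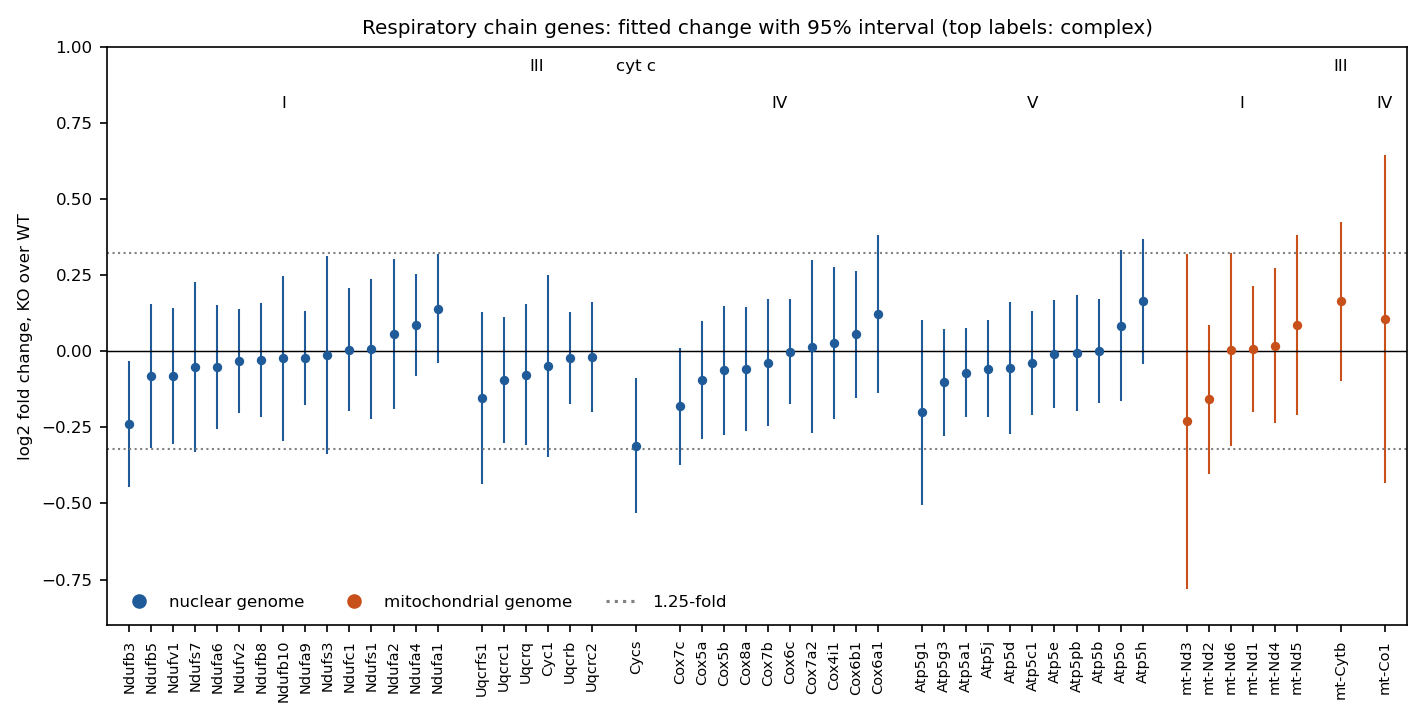
Fitted log2 fold change, KO over WT, of each of the 51 testable subunit genes with its 95% interval, ordered within each complex (nuclear genome blue, mitochondrial genome orange, dotted lines at 1.25-fold). All nuclear intervals stay within 1.5-fold, only those of Cycs and Ndufb3 leave out 0, and mt-Nd3 and mt-Co1 have the widest.

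Complex I, the entry point for electrons from NADH, was represented by 15 nuclear genes. None passed the test, 5 had positive and 10 negative log2 fold changes, and the median was −0.02 (range −0.24 to 0.14). Ndufb3, an accessory subunit of the membrane arm, had the smallest p of the 15. It was at 118, 118 and 130 CPM in KO and at 134, 156 and 143 CPM in WT. All KO libraries lay below all WT libraries, with a fold change between 0.734 and 0.978 (log2 −0.24 ± 0.09, adjusted p = 0.173). Ndufa1, a small accessory subunit of the membrane arm encoded on the X chromosome, lay the other way, at 135, 134 and 149 CPM in KO against 126, 126 and 127 CPM in WT. Its groups did not overlap, but the interval of the fold change (0.974 to 1.25) included no change (adjusted p = 0.333).

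Ndufa4, named as a complex I gene and since recognised as a subunit of complex IV, was the most abundant of these 15 per length (623 CPM per kilobase). It was kept with complex I in all medians, sums and ratios given here. It was at 382, 380 and 413 CPM in KO and 355, 384 and 367 CPM in WT, and KO1 and KO2 lay inside the WT range (log2 0.09 ± 0.07, adjusted p = 0.535). Ndufs3, a core subunit of the peripheral arm, was the least abundant (84.7 CPM per kilobase) and shared 19.9% of its windows with other transcripts. Its libraries read 90.8, 80.7 and 93.1 CPM in KO and 73.0, 103 and 91.1 CPM in WT, so that the WT libraries alone spanned all 3 KO values (log2 −0.01, adjusted p = 0.972). Intervals lay within 1.25-fold for 12 of the 15 genes.

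The 6 mitochondrial subunits of complex I that could be tested, all of them in its membrane arm, gave 4 positive and 2 negative values. mt-Nd1 was at 943, 802 and 919 CPM in KO and 911, 820 and 921 CPM in WT, with overlapping groups (log2 0.01 ± 0.09, fold 0.870 to 1.16, adjusted p = 0.974). mt-Nd2 was at 213, 170 and 177 CPM in KO and 220, 204 and 200 CPM in WT. Only KO1 reached the WT range (log2 −0.16 ± 0.10, fold 0.757 to 1.06, adjusted p = 0.431). mt-Nd4 read 264, 206 and 245 CPM in KO and 253, 229 and 223 CPM in WT (log2 0.02 ± 0.11, adjusted p = 0.945).

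mt-Nd5, further along the same strand, read 346, 267 and 315 CPM in KO and 328, 260 and 286 CPM in WT (log2 0.09 ± 0.13, adjusted p = 0.746). mt-Nd6, the only protein gene on the other strand (chrM:13552-14070, minus), overlaps the annotated end of mt-Nd5 only at chrM:13552-13565. Strand is not marked by this library type, so RNA of either strand cannot be told apart anywhere along mt-Nd6. How much of its count came from the minus strand was not tested. mt-Nd6 was at 123, 90.3 and 107 CPM in KO and 119, 97.4 and 103 CPM in WT (log2 0.01 ± 0.13, adjusted p = 0.987). In each of mt-Nd4, mt-Nd5 and mt-Nd6 the highest library was KO1, and the groups overlapped. mt-Nd3 was at 3.96, 4.16 and 5.09 CPM in KO and 5.05, 5.16 and 5.28 CPM in WT, on few counts and with the widest interval of the 8 (fold 0.581 to 1.25, adjusted p = 0.623). The signs of mt-Nd1, mt-Nd4 and mt-Nd6 changed under upper-quartile scaling and under library totals, where each lay within 0.02 of 0 on the log2 scale.

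Complex III hands electrons from ubiquinol to cytochrome c. Its 6 nuclear members all had negative log2 fold changes, from −0.15 to −0.02 with a median of −0.06, and none passed the test. The Rieske iron-sulfur protein Uqcrfs1 had the most negative value, at 181, 195 and 233 CPM in KO and 203, 247 and 228 CPM in WT. KO3 lay within the WT range (log2 −0.15 ± 0.12, fold 0.739 to 1.09, adjusted p = 0.511). The core protein Uqcrc1 was the most abundant per length (465 CPM per kilobase), at 717, 734 and 778 CPM in KO and 709, 858 and 815 CPM in WT (log2 −0.10 ± 0.09, adjusted p = 0.586). WT1 was the lowest of all 6 libraries in Uqcrc1, below every KO library. Uqcrq, a small subunit, was at 228, 225 and 261 CPM in KO and 232, 277 and 245 CPM in WT (log2 −0.08 ± 0.10). Uqcrc2, the second core protein and the least abundant per length (139 CPM per kilobase), read 256, 261 and 271 CPM in KO and 249, 285 and 264 CPM in WT (log2 −0.02). The single mitochondrial subunit, mt-Cytb, lay on the positive side, at 1367, 1085 and 1243 CPM in KO against 1210, 994 and 1092 CPM in WT. KO2 was below WT1 and WT3, and the interval included no change (log2 0.16 ± 0.11, fold 0.936 to 1.34, adjusted p = 0.441).

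Cycs encodes cytochrome c, which carries electrons between complexes III and IV and, when released from mitochondria, starts the caspase cascade of apoptosis. It had the most negative value and the smallest p of all members. Cycs was at 104, 110 and 108 CPM in KO and at 121, 147 and 131 CPM in WT. Every KO library lay below every WT library, with a fold change between 0.692 and 0.941 (log2 −0.31 ± 0.09, unadjusted p = 0.0130, adjusted p = 0.120). It did not pass the test after adjustment, with DESeq2 giving the smallest adjusted p of any member and setting tried (0.0586). Of the windows of its transcript, 24.7% occurred in other annotated genes, all of them in Gm10053, annotated as protein coding, and 6.32% occurred in pseudogenes.

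Complex IV, cytochrome c oxidase, was represented by 10 nuclear genes with a median of −0.02 (range −0.18 to 0.12, 4 positive and 6 negative). Cox7c, a small structural subunit, had the smallest p, at 156, 145 and 167 CPM in KO and 171, 184 and 176 CPM in WT. The groups did not overlap (log2 −0.18 ± 0.08, fold 0.773 to 1.01, adjusted p = 0.249), and 44.4% of its windows were shared with pseudogenes. Cox6a1, a regulatory subunit and the most abundant of the complex per length (943 CPM per kilobase), had the most positive value. It read 530.5, 520 and 634 CPM in KO and 465, 568 and 515 CPM in WT, with WT2 above KO1 and KO2 (log2 0.12 ± 0.11, fold 0.909 to 1.30, adjusted p = 0.577). Cox5a was at 173, 184 and 199 CPM in KO and 188, 203 and 204 CPM in WT (log2 −0.10 ± 0.08, adjusted p = 0.556). Cox5b, the least abundant per length (234 CPM per kilobase), was at 194, 193 and 207 CPM in KO and 186, 225 and 209 CPM in WT (log2 −0.06). In Cox5a and Cox5b the groups overlapped. Of the 3 catalytic subunits, which the mitochondrial genome encodes, only mt-Co1 had counts. It varied more between KO libraries than any other member tested, at 1449, 947 and 755 CPM, against 1107, 893 and 929 CPM in WT. The KO libraries included both the highest and the lowest value of the 6 (log2 0.11 ± 0.23, fold 0.740 to 1.56, adjusted p = 0.837), and without KO1 the log2 fold change was −0.20.

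Complex V makes ATP from the proton gradient. Its 11 nuclear genes had a median of −0.04 (range −0.20 to 0.16, 3 positive and 8 negative), and none passed the test. The catalytic beta subunit Atp5b was the most abundant nuclear member per length (1540 CPM per kilobase), at 2935, 2819 and 3108 CPM in KO and 2793, 3135 and 2920 CPM in WT. The ranges nearly coincided, and the sign of the fold change turned with the scaling (log2 0.00 ± 0.07, fold 0.890 to 1.13, adjusted p = 0.989). The alpha subunit Atp5a1, picked after its values were seen because its groups did not overlap, was at 1668, 1796 and 1779 CPM in KO and 1819, 1875 and 1808 CPM in WT (log2 −0.07 ± 0.06, fold 0.861 to 1.05). Atp5h, the d subunit of the peripheral stalk, had the smallest p of the complex, at 287, 292 and 317 CPM in KO and 244, 288 and 268 CPM in WT. WT2 lay within the KO range (log2 0.16 ± 0.09, adjusted p = 0.327).

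The c ring, the rotor through which protons pass, is made of 1 protein encoded by several genes. Atp5g1 was at 239, 261 and 281 CPM in KO and 248, 343 and 306 CPM in WT (log2 −0.20 ± 0.13, fold 0.705 to 1.07, adjusted p = 0.419). Atp5g3 was at 593, 628 and 644 CPM in KO and 626, 711 and 665 CPM in WT (log2 −0.10 ± 0.08, adjusted p = 0.484). In both genes KO and WT overlapped. Atp5g2, which is not among the 56, read 21.7, 28.4 and 23.1 CPM in KO and 24.7, 28.3 and 28.5 CPM in WT. Per kilobase of the principal transcript the order was Atp5g3 (892 CPM), Atp5g1 (59.3 CPM) and Atp5g2 (35.3 CPM), and the principal transcript of Atp5g1 is 4715 bases long, which lowers its value on this scale.

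The summed levels of each complex, and their ratios, overlapped between genotypes, with Ndufa4 counted in complex I. Summed nuclear levels were 2917 ± 144 CPM in KO and 2947 ± 185 CPM in WT for complex I (SD, n = 3 for each group here and below), 2053 ± 96.0 and 2160 ± 211 CPM for complex III, and 3345 ± 265 and 3335 ± 266 CPM for complex IV. For complex V they were 8085 ± 305 and 8252 ± 459 CPM. The ratio of complex I to complex V was 0.361 in KO and 0.357 in WT, that of complex III to V 0.254 and 0.261, and that of complex IV to V 0.413 and 0.404, and in each the libraries of the groups overlapped. Cytochrome c alone had groups that did not overlap, at the values given above. Medians of all 4 complexes lay between −0.06 and −0.02 in log2.

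Nuclear members shared much of their variation between libraries, and the spread of their summed level within a genotype exceeded the difference between genotypes. WT2 was the highest of the 6 libraries in 27 of the 43 nuclear genes and KO3 in 13, while WT1 was the lowest in 23. Within the groups, WT1 was the lowest WT library in 39 of 43 genes, and KO3 the highest KO library in 37. Summed nuclear levels were 16022, 16061 and 17436 CPM in KO and 15694, 17955 and 16828 CPM in WT, so WT1 and WT2 bracketed all KO libraries. Erythroid marker sums, given above, had WT1 as the lowest and WT2 as the highest WT library, and KO3 as the highest KO library. KO1 and KO2 went another way, with erythroid sums of 24475 and 8092 CPM and nuclear sums of 16022 and 16061 CPM, and KO1 was the lowest of the 6 libraries in 14 nuclear genes. With mean log2 erythroid marker expression as a covariate, the median of the nuclear members was −0.13 and that of complex III −0.21, and 0 members passed. Without WT1 the medians were −0.11 in complex I and −0.17 in complex III, and without WT2 the nuclear median was 0.00.

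The 8 mitochondrial members tested took another order across the libraries. KO1 was the highest of the 6 libraries in 6 of the 8 genes tested, and KO2 the lowest in 4. Median deviations from each gene's mean, in log2, were 0.19, −0.18 and 0.05 for the mitochondrial genes in KO and 0.12, −0.12 and −0.05 in WT. For the nuclear genes the same figures were −0.05, −0.05 and 0.06 in KO and −0.09, 0.11 and 0.02 in WT. WT1 was thus low in nuclear and high in mitochondrial transcripts, and WT2 the reverse. The summed mitochondrial level was 0.294, 0.222 and 0.216 of the nuclear sum in KO and 0.265, 0.195 and 0.223 of it in WT. These ratios overlapped between genotypes, with KO1 the highest and WT2 the lowest. Using only the 5 mitochondrial genes with few or no shared windows, the ratios were 0.187, 0.150 and 0.158 in KO and 0.178, 0.132 and 0.155 in WT. Reads counted to genes of the mitochondrial chromosome made up 0.486 to 0.638% of the counts of a library, in libraries primed from poly(A) tails. mt-Nd4l, mt-Co2, mt-Co3, mt-Atp6 and mt-Atp8, at or near 0 counts, add next to nothing to this share or to the summed mitochondrial level. Both thus describe counted reads only.

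**Figure D3:**
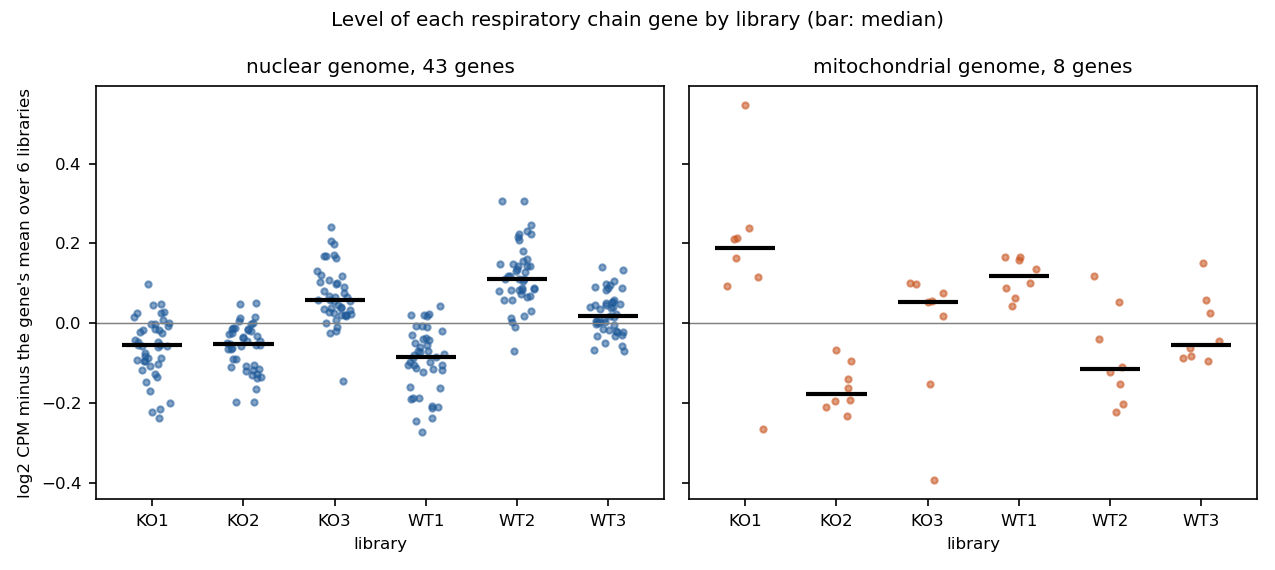
Each point is a subunit gene's log2 CPM in a library minus its mean over the 6 libraries (left, 43 nuclear genes; right, 8 mitochondrial genes), and bars are medians. Nuclear genes sit lowest in WT1 and highest in WT2, mitochondrial genes highest in KO1 and lowest in KO2, and neither set separates KO from WT.

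The difference between the genomes was not tested. Nuclear members had a median of −0.03 (quartiles −0.07 and 0.00, 12 positive and 31 negative) and mitochondrial members a median of 0.01 (quartiles −0.04 and 0.09, 6 positive and 2 negative). Under upper-quartile scaling and library totals the mitochondrial median was −0.01, and leaving out single libraries moved it between −0.08 and 0.11.

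Promoter sequences of the nuclear members were searched for 3 short motifs on both strands. RefSeq promoters (GRCm38.p6, 250 bases before to 50 after the gene's start) matched 34 of the 43 by symbol. The core of the NRF1 site, GCATGCGC, was found in 4 of them (11.8%), beside 3.05% of the promoters of all 27025 genes and 5.83% of those of 10658 tested genes. They are Ndufa6, Uqcrc1, Cycs and Cox6a1, in complexes I, III and IV and cytochrome c. A YY1 core, AAGATGGC, was in 6 (17.6%, beside 3.19% and 5.26%), of which 4 belong to complex I and 2 to complex V. An ETS core, CCGGAAG, was in 7 (20.6%), close to its share among tested genes (19.9%), with 3 each in complexes IV and V. ETS and YY1 cores can overlap at the letters AAG, and the NRF1 core can overlap itself on the other strand, as in Cox6a1. Cycs, with the most negative value of all members, and Cox6a1, with the most positive of complex IV, both carry the NRF1 core, so their promoters are shown with that of Ndufa9 (log2 −0.02), which has the YY1 core. Matches are in capitals, 5′ to 3′ in the direction of the gene, each on the minus strand: Cycs chr6:50566520-50566819, Cox6a1 chr5:115348909-115349208 and Ndufa9 chr6:126849095-126849394.
Cycs: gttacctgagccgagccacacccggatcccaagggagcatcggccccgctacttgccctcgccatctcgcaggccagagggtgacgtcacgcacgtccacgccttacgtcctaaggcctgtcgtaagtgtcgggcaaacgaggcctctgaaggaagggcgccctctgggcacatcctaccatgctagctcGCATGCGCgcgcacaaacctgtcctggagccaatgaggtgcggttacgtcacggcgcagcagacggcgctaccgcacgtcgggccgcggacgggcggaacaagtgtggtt
Cox6a1: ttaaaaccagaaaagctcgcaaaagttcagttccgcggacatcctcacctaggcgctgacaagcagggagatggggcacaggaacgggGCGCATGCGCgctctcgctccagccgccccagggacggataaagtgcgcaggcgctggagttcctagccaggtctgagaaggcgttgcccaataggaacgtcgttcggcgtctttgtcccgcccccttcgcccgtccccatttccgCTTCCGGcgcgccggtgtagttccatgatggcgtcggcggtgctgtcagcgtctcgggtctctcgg
Ndufa9: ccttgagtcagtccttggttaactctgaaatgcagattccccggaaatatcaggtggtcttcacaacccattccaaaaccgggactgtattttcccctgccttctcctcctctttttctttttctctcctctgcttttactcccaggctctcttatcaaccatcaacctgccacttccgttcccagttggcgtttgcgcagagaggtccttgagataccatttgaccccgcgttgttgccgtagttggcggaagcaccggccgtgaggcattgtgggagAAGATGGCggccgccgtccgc
A match is a description of the letters and not evidence of binding in these cells.

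Of the other 33 nuclear subunits, 0 passed by edgeR, DESeq2 or limma-voom. At an unadjusted p below 0.05 there were 2 (6.06%, beside 22.0% of all genes), and the median log2 fold change was −0.02. That median ran from −0.11 (without WT1) to 0.03 (without WT2) with 1 library left out. With these genes added, complex I (37 genes) had a median of −0.02, complex III (9) −0.08, complex IV (11) −0.04 and complex V (18) −0.05. Uqcr10, a small subunit of complex III, had the smallest p of these, at 235, 251 and 254 CPM in KO and 275, 329 and 301 CPM in WT. Its groups did not overlap (log2 −0.29 ± 0.09, fold 0.711 to 0.942, adjusted p = 0.115). Complex II, which takes electrons from succinate and has only nuclear subunits, had 0 of 4 passing by any of these tools, 0 at an unadjusted p below 0.05, and a median of −0.07. Its iron-sulfur subunit Sdhb was at 345, 343 and 380 CPM in KO and 361, 420 and 410 CPM in WT, with KO3 above WT1 (adjusted p = 0.340).

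Several subunits have isoforms restricted to other tissues, and 3 of 9 such genes had enough counts for a test. Of these 0 passed by edgeR and 1 (33.3%), Cox7a1, by DESeq2, beside 13.1% of all genes. Cox6b2, the testis isoform of Cox6b1, was present in all 6 libraries, at 107, 70.5 and 113 CPM in KO and 71.4, 84.2 and 61.1 CPM in WT (log2 0.42 ± 0.20, adjusted p = 0.274). The log2 value was 0.06 with the erythroid covariate and 0.29 (without KO3) to 0.60 (without KO2) with 1 library left out. Per kilobase it was at 144 CPM, beside 675 CPM for Cox6b1, which read 415, 411 and 448 CPM in KO and 372, 448 and 407 CPM in WT. Cox7a1, the heart and muscle isoform of Cox7a2, was at 0.270, 0.087 and 0.218 CPM in KO and 1.17, 0.948 and 0.928 CPM in WT. Its groups did not overlap and its level was low (log2 −2.39 ± 0.57, adjusted p = 0.0691, but 0.0124 by DESeq2). Cox4i2, the lung isoform of Cox4i1, was at 2.50 CPM per kilobase beside 749 CPM for Cox4i1. Cox7b2, Cox8b, Cox8c and Ndufa4l2 had 0 counts in all libraries, Cox6a2 was at 0.080 CPM per kilobase, and the testis cytochrome c Cyct did not exceed 0.0442 CPM.

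Among the genes that express the mitochondrial genome, medians lay further below 0 than among the subunits, a difference that was not tested. Of 32 genes for mitochondrial DNA replication, transcription and RNA processing, 25 had negative values, with a median of −0.19 that ran from −0.24 (without KO2) to −0.11 (without WT2) when 1 library was left out. Of the 32, 1 passed the test, lower in KO (3.13%, beside 1.92% of all genes lower and 3.56% in either direction). By DESeq2 5 were lower (15.6%, beside 6.04% of all genes lower and 13.1% in either direction), and by limma-voom 1 was lower (beside 1.62% of all genes). The gene past edgeR's test, Tefm, the elongation factor of the mitochondrial RNA polymerase, fell from 33.7, 34.6 and 35.3 CPM in WT to 23.1, 25.0 and 21.6 CPM in KO. The groups did not overlap (log2 −0.57 ± 0.11, fold 0.560 to 0.808, adjusted p = 0.0440), but adjusted p lay between 0.0504 and 0.162 whenever any 1 of the 6 libraries was left out. It was 0.0541 with library totals as the scaling, 0.0571 with no filter on low counts, 0.138 with the erythroid covariate and 0.144 with the replicate block. Of the products of that polymerase, mt-Rnr2, the large ribosomal RNA, was at 1616, 1208 and 1484 CPM in KO and 1255, 1300 and 1161 CPM in WT (log2 0.21, adjusted p = 0.332). Of the 22 mitochondrial tRNAs 6 had enough counts, with a median of −0.32 that was −0.07 without WT1, −0.51 without WT2 and 0.10 with the erythroid covariate. Among them mt-Tl1 had the smallest p (0.157, 0.109 and 0.170 CPM in KO, 0.277, 0.253 and 0.287 CPM in WT, log2 −0.90 ± 0.55, adjusted p = 0.393). These levels are not far above 3 counts, which make 0.0594 to 0.0727 CPM. Mitochondrial tRNA genes are 59 to 75 bases long, shorter than the 100-base reads, and the libraries were primed from poly(A) tails. How far their counts reflect mature tRNA was not tested.

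The mitochondrial ribosome, which translates only the subunits encoded in mitochondrial DNA, had 79 of its 80 genes tested. Of these 72 (91.1%) had negative log2 fold changes, against 49.1% of all tested genes, and the median was −0.15, with −0.24 without WT1, −0.09 without WT2 and −0.26 with the erythroid covariate. Across the scalings tried 72 to 74 were negative, without WT2 58 of 79 were, without WT1 all 79, and with the erythroid covariate 78. None passed edgeR's test, and 22 (27.8%) had an unadjusted p below 0.05, beside 22.0% of all genes. Both shares count either direction, while 72 of the 79 genes were negative, and a share for lower genes alone was not computed. DESeq2 called 4 lower (5.06%, beside 6.04% of all genes), and limma-voom called 0. Genes that share regulators and libraries are not independent, so this count is a description and has no p. Mrpl38, a protein of the large subunit, had the smallest p, at 80.0, 88.6 and 85.5 CPM in KO and 98.1, 117 and 111 CPM in WT. Its groups did not overlap (log2 −0.36, adjusted p = 0.0894, and 0.0223 by DESeq2). Groups with KO below were found for 24 of the 79 genes (30.4%), beside 14.4% of all genes, and groups with KO above for 0, beside 13.6%. KO also lay below in 10 of the 32 genes of mitochondrial DNA expression (31.25%), 4 of 11 mitochondrial translation factors (36.4%) and 12 of 45 assembly factors (26.7%). In each of these lists KO lay above for 0 genes. Among the other 33 nuclear subunits KO lay below in 4 (12.1%).

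Translation factors of the mitochondria had 0 of 11 passing edgeR's test and a median of −0.12. Of the 11, 2 (18.2%) were at an unadjusted p below 0.05, beside 22.0% of all genes. DESeq2 called 1 lower (9.09%, beside 6.04% of all genes), and limma-voom called 0. The elongation factor Gfm1 was at 120, 102 and 109 CPM in KO and 133, 145 and 141 CPM in WT, without overlap (log2 −0.34, adjusted p = 0.0859, and 0.0221 by DESeq2). Assembly factors, which put subunits and cofactors together, had 0 of 45 passing, 29 negative values and a median of −0.08 that ran from −0.16 (without KO2) to −0.04 (without WT2). An unadjusted p below 0.05 was found for 8 (17.8%, beside 22.0% of all genes), DESeq2 called 4 lower (8.89%, beside 6.04%), and limma-voom called 0. Coa3, which acts in the assembly of complex IV around its first catalytic subunit, was at 123, 124 and 137 CPM in KO and 151, 180 and 180 CPM in WT. The groups did not overlap (log2 −0.41 ± 0.10, adjusted p = 0.0685), and the adjusted p was 0.00792 by DESeq2 and 0.0487 without WT1.

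The enzymes that modify the wobble base of mitochondrial tRNAs gave 3 negative values (2 without KO1), with 0 calls by edgeR, DESeq2 or limma-voom and 0 at an unadjusted p below 0.05. Gtpbp3, which acts with Mto1 in adding taurine, was at 20.9, 27.0 and 26.4 CPM in KO and 23.8, 32.8 and 28.3 CPM in WT, with overlap (log2 −0.19 ± 0.17, fold 0.665 to 1.16, adjusted p = 0.572). Mto1 was at 51.7, 52.0 and 61.5 CPM in KO and 56.7, 54.7 and 58.4 CPM in WT, with KO3 above all WT libraries (log2 −0.04 ± 0.10, fold 0.821 to 1.15, adjusted p = 0.865). Trmu, which adds sulfur to the same base, was at 21.9, 23.0 and 24.0 CPM in KO and 26.6, 26.7 and 28.1 CPM in WT. All KO libraries lay below all WT libraries, and the interval included no change (log2 −0.24 ± 0.11, fold 0.702 to 1.02, adjusted p = 0.270). The modification itself, and the protein output of mitochondria, were not measured here.

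Regulators of respiratory genes, among them Nrf1, Gabpa, Yy1 and the PGC-1 coactivators, had 7 of 9 values positive and a median of 0.15. By edgeR, DESeq2 or limma-voom 0 passed, and 1 (11.1%) was at an unadjusted p below 0.05, beside 22.0% of all genes. Gabpb2, a partner of the ETS factor GABP, had the smallest p, at 54.0, 48.7 and 55.4 CPM in KO and 31.4, 42.8 and 44.1 CPM in WT. Its groups did not overlap (log2 0.42 ± 0.15, adjusted p = 0.165). Fitted with the erythroid covariate, the regulators had a median of 0.03, with 6 of 9 positive, and the log2 value of Gabpb2 was 0.19. Without WT1 it was 0.26 for Gabpb2.

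**Figure D4:**
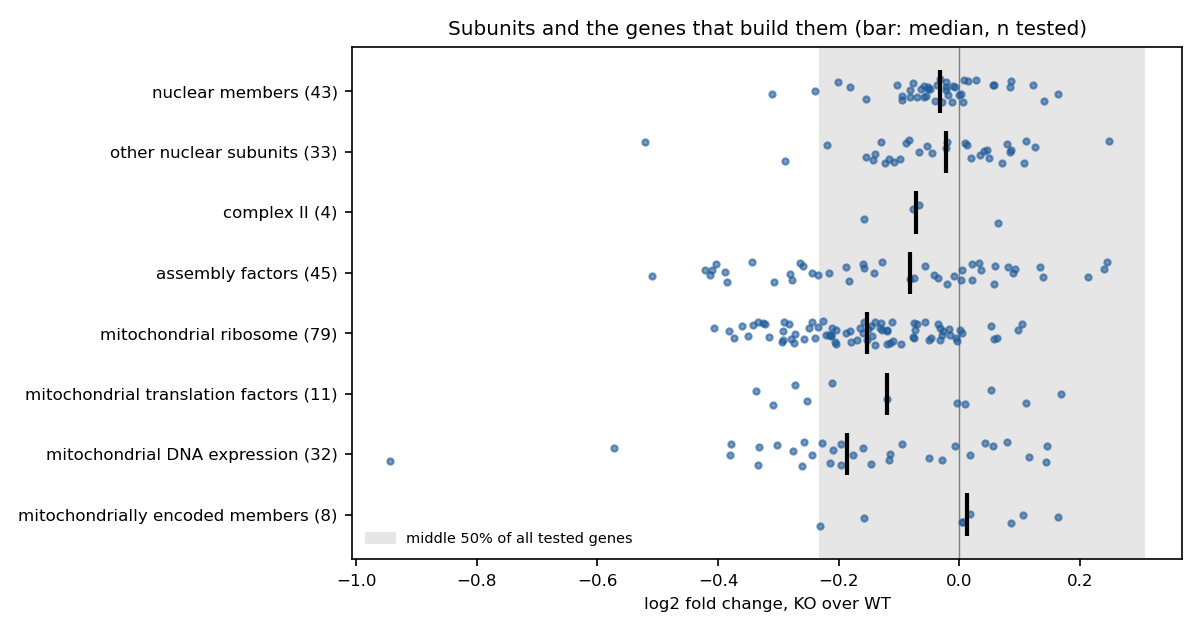
Fitted log2 fold changes, KO over WT, for the subunits and for the genes that build and express them, with 1 point per tested gene, bars at medians and the number tested in parentheses; the grey band holds the middle 50% of all tested genes. Subunit medians lie between −0.07 and 0.01, and those of the mitochondrial ribosome and of mitochondrial DNA expression at −0.15 and −0.19, inside the band.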

How the data were processed

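RNA of 6 libraries was pre-amplified from the poly(A) tail (SMARTer Ultra Low Input v4), tagmented (Nextera XT) and sequenced as 100-base single-end reads, per the labels. The deposited values are raw counts of reads per gene, made by the authors with STAR 2.7.9a after fastp 0.23.1, and with featureCounts of Subread 2.0.1, per the submitters' processing notes. For parameters, build, annotation and the handling of multi-mapping reads, the sources used here give no entry. The library type has no molecular identifiers and marks no strand.

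From the counts, genes were kept by edgeR's filterByExpr (minimum count 10, minimum total 15; 15232 genes), scaled by TMM and compared with the quasi-likelihood F test (edgeR 4.0.16, R 4.3.3) without covariates, with Benjamini-Hochberg adjustment over all genes and a threshold of 0.05. CPM use TMM-scaled library sizes, and values per kilobase divide by the GENCODE M21 principal transcript, whose gene names matched 92.8% of the table. A standard error is the log2 fold change divided by the square root of F, and 95% intervals use the t distribution of the fit. The biological coefficient of variation was 0.323, and the code was tested on simulated data. Replicates of a group differed beyond sampling noise (chi-square per degree of freedom 32.8 to 113).

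The members and lists were chosen with earlier results of these data known. Named are members past the threshold, the 3 smallest p in each complex, cytochrome c, all mitochondrial members, the highest and lowest level per length in each complex, the smallest p (or up to 6 calls) of every other list, tissue isoforms, wobble enzymes and Slc6a6. Alternatives were other scalings and filters, DESeq2 1.42.0, limma-voom (limma 3.58.1), the replicate number as a block, an erythroid covariate and each library left out. Deviations of same-numbered KO and WT libraries correlated at 0.0521, −0.235 and −0.0859, and those of differently numbered ones between −0.206 and 0.287. With 3 libraries per group, these values cannot settle whether the numbers pair libraries.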

Additional observations from a re-analysis of the deposited data

How the results depend on the processing

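Of the subunit genes, 0 passed in either direction under all 16 alternatives, and the smallest adjusted p of any member ran from 0.0586 (DESeq2) to 0.276 (without WT3). Over all genes, 250 were higher and 293 lower; DESeq2 called 1075 and 920, the erythroid covariate left 143 and 101, and leaving out 1 library gave 13 to 371 and 29 to 247. With the replicate block the counts were 8 and 20, with 0 members, and whether the replicate numbers pair libraries is not settled. Fewer samples and, for the block and the covariate, fewer residual degrees of freedom enter these fits; otherwise the cause was not tested.

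With the erythroid covariate the median log2 fold change was −0.13 for nuclear members, −0.11 for complex I, −0.21 for complex III and −0.16 for complex IV. Leaving out 1 library gave medians of −0.10 to 0.00 (nuclear), −0.107 to 0.00214 (complex I, lowest without WT1), −0.172 to −0.0130 (complex III, lowest without WT1), −0.10 to 0.03 (complex IV), −0.10 to 0.01 (complex V) and −0.08 to 0.11 (mitochondrial). Leaving out members with over 10% of windows shared, an alternative chosen after seeing the data, gave −0.04 (nuclear) and 0.01 (mitochondrial).

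Among 42 genes named with a fold change and refitted, the sign turned in 11, none with a log2 fold change over 0.12 in size. For mt-Nd1 the log2 value was −0.0116 with upper-quartile scaling, −0.0119 with library totals, −0.000268 with a filter of 1 CPM and −0.0345 with the erythroid covariate, and −0.0465 to 0.0672 with 1 library left out. For mt-Nd4 it was −0.000572 (upper-quartile), −0.000853 (library totals) and −0.0476 (erythroid), and −0.0617 to 0.105 with 1 library left out. For mt-Nd6 it was −0.0142 (upper-quartile), −0.0152 (library totals), −0.0014 (1 CPM), −0.0037 (limma-voom), −0.00078 (replicate block) and −0.0227 (erythroid), and −0.107 to 0.105 with 1 library left out. Leaving out 1 library gave −0.0023 to 0.175 for mt-Nd5, −0.197 to 0.291 for mt-Co1 and −0.135 to 0.0030 for Mto1, each turned by KO1 alone. Cox6a1 was at −0.0573 with the erythroid covariate. Atp5b was at −0.0162 (upper-quartile), −0.0145 (library totals), −0.00492 (no filter), −0.00668 (1 CPM) and −0.101 (erythroid), and −0.0568 to 0.0462 with 1 library left out. Ndufs3 was at 0.000489 by limma-voom. With 1 library left out, Ndufs3 ran from −0.158 to 0.103, Uqcrc2 from −0.0856 to 0.0323 and Cox5b from −0.156 to 0.000259, each highest without WT2. Of 670 values of these genes, 613 kept direction and side of the threshold. At 3 counts, or 0.0594 to 0.0727 CPM, depth was no limit for the nuclear members.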
